A study of Mus musculus with 30 samples.

Results

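Broad H3K4me3 domains free of H3K27me3 were taken from the deposited peak list of wild-type motor neurons. A domain is an H3K4me3 region of 4000 bp or more that shares no base with a region of the H3K27me3 list from the same cells. This rule took 718 of 21286 H3K4me3 regions. The other 589 regions of that width shared bases with H3K27me3, and the narrower regions numbered 13598 without and 6381 with H3K27me3. The members covered 3.62 Mb, had a median width of 4676 bp and reached 15506 bp. Members were chosen by their measured H3K4me3 width and by absence from the H3K27me3 list, so both are given as a description only.

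The cells were mouse embryonic stem (ES) cells and motor neurons induced from them. RNA was measured in ES cells (genotype label WT), in wild-type motor neurons and in motor neurons named HD and EH, with 2 libraries per group. Both HD and EH carry the genotype label Mnx1KO, and the labels explain neither name. All motor neurons, wild type included, were harvested on day 6 after retinoic acid (RA, 1 µM), the Smoothened agonist SAG (1 µM), doxycycline (DOX, 1 µM) and the Notch pathway inhibitor DAPT (5 µM). ChIP-seq of H3K4me3, H3K27me3, H3K27ac and H3K4me1 came from 2 libraries per genotype and H3K9me3 from 1, in wild type and in HD, and Mnx1 ChIP-seq came from 2 wild-type libraries. The antibodies named in the labels include one to GFP and none to Mnx1, and the pull-down of Mnx1 is not described further. One list was deposited per mark and genotype, so no ChIP value here has a spread between replicates. Whether replicates were separate cultures is not stated, so RNA errors measure only the spread between these libraries.

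RNA libraries held 11.2 to 53.2 M expected counts, with 13.9 M in each wild-type, 11.2 and 12.4 M in the HD, 39.7 and 39.8 M in the EH and 51.3 and 53.2 M in the ES libraries. Mnx1 stood at 0.36 and 0.29 TPM (a level scaled for gene length and library size) in ES cells, 395 and 343 in wild-type motor neurons, 377 and 312 in HD and 446 and 565 in EH. Mnx1 RNA was therefore present in the HD and EH libraries at levels near wild type, and total RNA of the gene does not check a deletion of part of it. The summed level of 7 spinal motor neuron markers was 2.40 to 2.62 TPM in ES cells and 1431 to 1693 TPM in wild-type motor neurons. The summed level of 4 trophoblast markers was 327 to 399 TPM in wild type and 319 to 427 in HD but 10.1 to 56.6 in EH. All 4 were detected in EH, and Tpbpa, Cdx2 and Prl2a1 were lower there in both libraries than in either wild-type library. The summed level of 5 neural progenitor markers was 86.2 to 88.4 TPM in HD, most of it Sox1, against 30.2 to 31.8 in wild type. In bulk cultures, fewer cells of a type and less RNA per cell cannot be told apart.

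H3K4me3 is laid down at active and poised promoters by SET1 and MLL (KMT2) methyltransferase complexes, and most promoters carry it in a narrow block around the transcription start. Unusually wide blocks are known from genes of cell identity and from genes transcribed steadily at a high rate. Polycomb complexes deposit H3K27me3, a mark of repression, and promoters with both marks are called bivalent. Mnx1 (Hb9) is a homeodomain factor that keeps motor neurons from taking an interneuron fate, and homeodomains commonly bind a TAAT core.

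Promoter sequences of 9 members are shown first because they span the kinds of start site found in the set. Each is the 250 bases before the gene's start, written 5′ to 3′ along the gene's strand from RefSeq (GRCm38.p6, the assembly behind mm10). Capitals mark TAAT on either strand (TAAT or ATTA), including overlapping matches. The first 4 hold the summit of a Mnx1 region, the next 3 belong to genes higher in motor neurons than in ES cells, and the last pair belong to 2 of the widest domains.
Rufy3, chr5:88583263-88583512, plus strand: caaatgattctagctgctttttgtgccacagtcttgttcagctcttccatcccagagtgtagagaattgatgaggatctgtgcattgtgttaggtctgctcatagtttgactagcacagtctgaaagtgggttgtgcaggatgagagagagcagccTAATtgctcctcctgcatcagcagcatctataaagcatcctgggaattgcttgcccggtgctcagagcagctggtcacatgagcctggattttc
Kmt2a, chr9:44881290-44881539, minus strand: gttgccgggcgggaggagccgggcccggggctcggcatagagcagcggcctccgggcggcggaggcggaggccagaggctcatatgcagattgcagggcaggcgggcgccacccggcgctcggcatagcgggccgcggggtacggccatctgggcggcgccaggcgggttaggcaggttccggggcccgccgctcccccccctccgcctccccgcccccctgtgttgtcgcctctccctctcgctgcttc
Alkbh5, chr11:60537433-60537682, plus strand: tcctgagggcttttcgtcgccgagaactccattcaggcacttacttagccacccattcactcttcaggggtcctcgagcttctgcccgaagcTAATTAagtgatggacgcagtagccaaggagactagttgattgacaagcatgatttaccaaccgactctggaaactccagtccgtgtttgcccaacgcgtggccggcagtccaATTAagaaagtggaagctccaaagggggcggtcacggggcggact
Tle4, chr19:14598184-14598433, minus strand: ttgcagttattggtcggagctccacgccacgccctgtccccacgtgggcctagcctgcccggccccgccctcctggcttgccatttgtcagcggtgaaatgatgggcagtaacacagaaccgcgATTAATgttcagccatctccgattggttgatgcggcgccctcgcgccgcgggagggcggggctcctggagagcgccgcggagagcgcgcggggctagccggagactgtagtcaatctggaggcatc
Dcx, chrX:143933125-143933374, minus strand: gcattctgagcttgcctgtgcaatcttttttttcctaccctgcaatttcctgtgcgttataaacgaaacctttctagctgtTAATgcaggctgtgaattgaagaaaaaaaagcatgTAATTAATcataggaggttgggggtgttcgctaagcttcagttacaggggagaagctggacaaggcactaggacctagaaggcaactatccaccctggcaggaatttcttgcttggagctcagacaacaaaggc
Arhgap36, chrX:49463695-49463944, plus strand: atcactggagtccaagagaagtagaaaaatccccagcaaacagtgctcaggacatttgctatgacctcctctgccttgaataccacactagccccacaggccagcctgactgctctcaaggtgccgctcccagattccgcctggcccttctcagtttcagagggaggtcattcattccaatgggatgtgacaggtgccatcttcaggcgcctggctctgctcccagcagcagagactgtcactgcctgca
Slc5a7, chr17:54299035-54299284, minus strand: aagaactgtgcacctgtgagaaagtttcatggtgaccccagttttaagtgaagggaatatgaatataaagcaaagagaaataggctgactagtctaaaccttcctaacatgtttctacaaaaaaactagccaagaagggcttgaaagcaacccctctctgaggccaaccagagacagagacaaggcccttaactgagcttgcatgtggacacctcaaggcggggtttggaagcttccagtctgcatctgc
Meis1, chr11:19018970-19019219, minus strand: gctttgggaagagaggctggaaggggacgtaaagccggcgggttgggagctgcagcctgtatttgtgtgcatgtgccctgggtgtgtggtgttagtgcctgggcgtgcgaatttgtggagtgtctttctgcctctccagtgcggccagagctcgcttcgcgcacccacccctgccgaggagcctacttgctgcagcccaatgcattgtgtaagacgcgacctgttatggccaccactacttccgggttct
Qk, chr17:10319362-10319611, minus strand: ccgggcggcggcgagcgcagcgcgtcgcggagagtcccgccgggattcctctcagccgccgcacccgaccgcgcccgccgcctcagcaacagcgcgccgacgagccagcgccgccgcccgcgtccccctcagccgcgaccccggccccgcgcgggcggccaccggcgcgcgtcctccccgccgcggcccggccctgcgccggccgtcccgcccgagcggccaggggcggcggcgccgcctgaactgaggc

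The printed promoters ranged from CpG-rich to CpG-poor. Qk, an RNA-binding protein of splicing, had 52 CpG and 84.8% G+C in its 250 bases, and Kmt2a, an H3K4 methyltransferase, had 29 CpG. Dcx, the microtubule protein doublecortin of young neurons, had 3, Arhgap36 had 3 and Slc5a7, the choline transporter of cholinergic neurons, had 1. Rufy3, a neuronal adaptor protein of the axon, had 1 CpG and a single TAAT under a Mnx1 region with an enrichment of 10.0. Alkbh5, an RNA demethylase, had 3 TAAT matches, a TAATTA among them, under a Mnx1 region with an enrichment of 6.5. Kmt2a had none under a Mnx1 region with an enrichment of 7.4, so the core was not present in every window that held a Mnx1 summit.

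Over the whole set, RefSeq windows of 300 bases (250 before to 50 after the start) were found for 840 starts of 646 member genes. Their median G+C content was 64.3% with 25 CpG, against 56.3% and 13 over all 21263 coding windows. Only 30 member windows (3.57%) had fewer than 5 CpG, against 28.4% of all windows. Other H3K4me3 classes were close to the members, with 1.80% to 2.80% under 5 CpG and GGGCGG in 67.0% to 70.4%. Windows with no H3K4me3 region had fewer than 5 CpG in 68.1%. TAAT, searched on both strands, was in 37.6% of member windows and 51.8% of all. TAATTA, which contains TAAT, was in 1.67% and 4.53%. GGGCGG, a core of GC boxes, was in 71.5% and 46.2%, and TATAAA in 7.02% and 12.6%. Member windows with a Mnx1 region held TAAT in 40.1% and those without one in 36.0%. These shares move with base composition, and a match of letters is not a binding site.

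Most domains lay at gene starts. Of the 718, 659 (91.8%) held or lay within 1 kb of the start of a coding gene, 46 lay inside a coding gene away from its listed start and 13 lay outside coding genes. Only starts listed in the reference were used, so a domain at an unlisted start counts as away from starts. Of narrower regions without H3K27me3, 62.1% lay at a start, with 93.9% at 3 to 4 kb and 14.3% below 1 kb. In 149 members (20.8%) at least 2 coding genes started, against 6.62% of the broad regions with H3K27me3 and 7.57% of the narrower regions without it. Of regions of 3 to 4 kb without H3K27me3, 19.5% held at least 2. In both shares the members were therefore close to the regions just under their width. Where 1 gene with a known strand started inside the domain (549 starts), a median of 73.3% of the domain lay downstream of the start, and 493 of the 549 had most of the domain downstream.

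Among the widest members at gene starts, Meis1, a TALE homeodomain partner of Hox proteins, had a domain of 14392 bp (chr11:19007235-19021626), and Setd1b, a subunit that methylates H3K4, one of 11770 bp. Snx18, a membrane trafficking protein, followed with 11491 bp, Qk with 11385, the insulin receptor substrate Irs1 with 10894 and the semaphorin receptor Nrp1 with 10141. Hoxc4, a Hox factor of the cervical cord, had 9929 bp and Irs2 9535. A domain of 11648 bp held the starts of Tshz1 and Zadh2. At the threshold, the narrowest members were at Aen (4001 bp), Ivns1abp and Mdh2 with Styxl1 (4003 bp each) and Vasp and Abhd17b (4004 bp each), and the widest regions just outside it were at Myh9 (3997 bp), Trim11 and Ppia (3996 bp each) and Srsf1 (3995 bp).

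The 815 coding genes of the domains (651 placed by start and strand, 164 by either end of the gene where no strand was known) gave 800 that matched the RNA files. In wild-type motor neurons 785 of the 800 stood at 1 TPM or more and in ES cells 749. Of these, 741 passed that level in both cell types, 44 in motor neurons only and 8 in ES cells only, and 7 in neither. Their median was 54.3 TPM in wild-type motor neurons (quartiles 26.2 and 127), 24.2 in ES cells, 54.4 in HD and 57.2 in EH. In the same wild-type motor neurons the median was 18.6 TPM for genes of broad regions with H3K27me3, 27.1 for narrower regions without it and 6.39 for all coding genes. Among the 501 genes that were alone at their domain, width and level were hardly related (Pearson -0.07, Spearman -0.07 across genes, which share libraries and are not replicates).

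Against ES cells, member genes were called more often than all genes tested, with the excess among genes higher in motor neurons. By edgeR's quasi-likelihood test (adjusted p under 0.05), 666 of 789 tested members were called (84.4%), where 75.3% of all 17770 tested genes were. Higher in motor neurons were 398 (50.4%; 38.8% of all genes) and lower 268 (34.0%; 36.5% of all genes), and 274 and 129 of them by at least 2-fold. The median log2 fold change was 0.29 for members and 0.02 for all genes tested. Among the 15118 coding genes tested, 77.4% were called, 41.3% higher and 36.1% lower. By at least 2-fold, 4565 of the 15118 were higher and 3508 lower, beside 274 and 129 of the 789 members. Members were chosen by marks in motor neurons, and how much of the tilt follows from that choice was not tested. On a log2(TPM + 1) scale with limma, the median of all genes moved to 0.51 and of the members to 0.86, and the share of higher among called members moved from 59.8% to 78.8%. Genes at broad regions with H3K27me3 were tilted further upward, with 71.1% higher, 17.1% lower and a median of 2.47. The counts differed with the number of genes at a domain: genes alone at theirs were higher in 298 and lower in 135 cases (median 0.67), and those sharing one in 100 and 133 (median -0.17). By width the median was 0.18 at 4 to 5 kb, 0.36 at 5 to 6 kb and 0.96 at 6 kb or more.

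**Figure D1:**
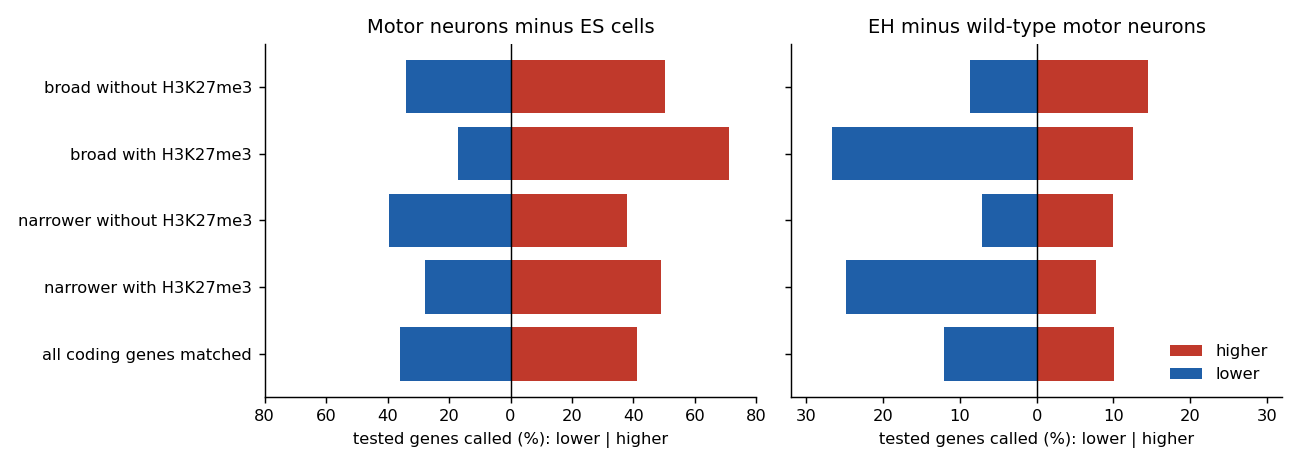
Share of tested coding genes called higher (red, right) or lower (blue, left) by edgeR at an adjusted p under 0.05, by the class of H3K4me3 region at their start, for motor neurons minus ES cells (left panel) and EH minus wild-type motor neurons (right panel). Broad domains without H3K27me3 had 50.4% higher and 34.0% lower against ES cells, and 14.5% higher and 8.72% lower in EH.

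Neuronal genes were among the largest rises. Dcx, with a domain of 5548 bp at chrX:143927877-143933424, stood at 0.01 and 0.03 TPM in ES cells, 310 and 308 in wild-type motor neurons, 365 and 343 in HD and 235 and 347 in EH. Its RNA was near absent in both ES libraries and high in all 6 motor neuron libraries (log2 fold change 13.49 ± 0.38 SE, adjusted p = 1.16e-07 by edgeR). Nyap2, a neuronal phosphoprotein of PI3K signalling, was at 0 in both ES libraries and at 59.6 and 45.0 TPM in wild-type motor neurons. The zinc finger factors Myt1 and Myt1l rose by 11.49 ± 0.43 and 9.21 ± 0.34 on the log2 scale. Snap25, a SNARE protein of synaptic vesicle release, went from 0.22 and 0.25 TPM to 182 and 203. Robo2, a Slit receptor, went from 0.09 and 0.21 to 70.1 and 80.5, and Hoxc4 from 0.15 and 0.06 to 136 and 120. Arhgap36, known as an antagonist of protein kinase A, went from 0.09 in both ES libraries to 92.4 and 69.9. In each of these 8 genes, the lowest wild-type motor neuron library was far above the highest ES library.

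**Figure D2:**
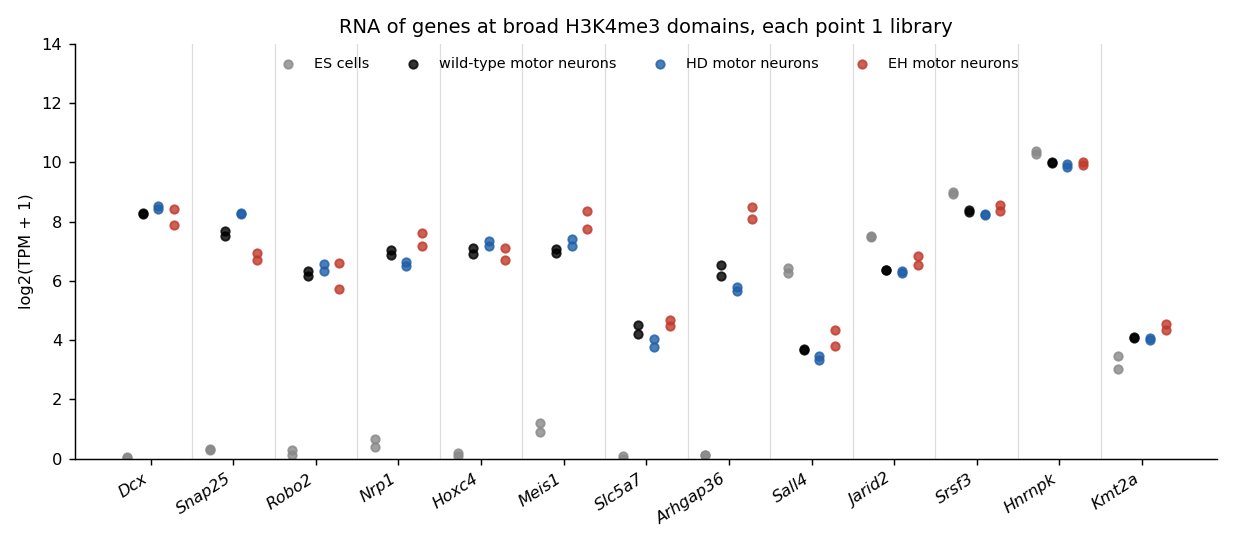
RNA level, as log2(TPM + 1), of 13 genes at broad domains, with 1 point per library and 2 libraries in each of the 4 groups. The points of the first 8 genes lie near 0 or below 1.3 in ES cells and above 4 in wild-type motor neurons, while Sall4, Jarid2, Srsf3 and Hnrnpk are highest in ES cells.

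The gene lists showed which functions the set holds. Over all coding genes matched to the RNA files, 800 of 21024 were members, and each list count stands beside that share. Of 30 axon guidance and adhesion genes, 8 started at members, namely Dcc, Robo2, Nrp1, Plxna1, Plxna2, Epha4, Efnb2 and Sema6a, receptors, an ephrin and a transmembrane semaphorin. Of the 8, 7 rose against ES cells, where 26 of the whole list of 30 did. Nrp1 stood at 0.31 and 0.58 TPM in ES cells and 131 and 117 in wild-type motor neurons (log2 7.48 ± 0.31). Epha4, the exception, had a log2 fold change of 0.43 ± 0.18 (adjusted p = 0.0553). Of 20 pan-neuronal genes, 4 were members (Dcx, Snap25, Elavl4 and Gap43), and all 4 rose, as did 19 of the 20.

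Motor neuron identity genes were mostly outside the set, as were most coding genes (800 of 21024 matched were members). Of 19 spinal motor neuron genes only Slc5a7 was a member, and 16 stood at broad regions with H3K27me3, Mnx1, Isl1, Lhx3 and Chat among them. Slc5a7 had 0 and 0.05 TPM in ES cells, 21.7 and 17.4 in wild-type motor neurons, 15.3 and 12.6 in HD and 21.4 and 24.9 in EH. It rose by 8.75 ± 0.40 on the log2 scale against ES cells. Of 30 Hox genes 1 was a member, Hoxc4, and 14 stood at broad regions with H3K27me3. Mecom (motor columns) and Sox4 (progenitors and young neurons) were single members of their lists, and both rose against ES cells. None of the 24 genes on the cell cycle list was a member, and 18 of them stood at narrower regions without H3K27me3. None of the 20 interneuron factors, 15 glia and floor plate genes or 22 endoderm, mesoderm and trophoblast genes was a member. At the share over all coding genes, lists of these lengths would hold few members or none. The low counts here are therefore not read as a trait of these lists.

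RNA-processing genes formed the largest listed group and stood lower in motor neurons by counts, though 3 of the 11 did not on the TPM scale. Of 18 such genes matched, 11 were members: the splicing factors Srsf2, Srsf3, Srsf5 and Tra2b, the RNA-binding proteins Hnrnpa1, Hnrnpa2b1, Hnrnpk and Hnrnpu, the RNA helicase Ddx5, the RNA polymerase II subunit Polr2a and the bromodomain protein Brd2. All 11 fell by edgeR, as did 16 of all 18 matched, but on the log2(TPM + 1) scale Brd2, Ddx5 and Polr2a turned positive (0.32, 0.35 and 0.34). Srsf3 stood at 516 and 492 TPM in ES cells and 317 and 336 in wild-type motor neurons (log2 -1.17 ± 0.10). Hnrnpk had 1331 and 1260 in ES cells and 1015 and 1040 in wild-type motor neurons (log2 -0.76 ± 0.09). These genes were thus among the higher-expressed members in both cell types, with ES libraries above the motor neuron libraries for Srsf3 and Hnrnpk.

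The pluripotency list had Sall4 and Lin28a as members, and both fell, as did all 20 of the list. Sall4, a zinc finger factor of pluripotent cells, fell from 85.1 and 76.5 TPM to 11.6 and 11.9 (log2 -3.41 ± 0.14, adjusted p = 3.21e-07 by edgeR). Its domain of 4504 bp at chr2:168763424-168767927 was present in motor neurons all the same. Lin28a, a repressor of let-7 processing, fell by 1.84 on the log2 scale, and Jarid2, a cofactor of Polycomb complex PRC2, fell from 183 and 176 to 82.3 and 81.0 TPM. Septin1 fell from 198 and 76.3 TPM to 2.03 and 1.46, with ES libraries that differed from each other. The mitotic regulators Fbxo5, Zwilch and Mastl fell by 2.83, 2.71 and 2.53, the tumour suppressor Trp53 by 2.60, the purine synthesis enzyme Gart by 2.59 and the nuclear pore gene Nup43 by 2.54. Septin1, Zwilch, Trp53, Gart, Nup43 and Mastl share their domains with at least 1 other gene start, so the domain cannot be given to 1 of them.

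Members of the H3K4 methylation list included the enzymes themselves. Kmt2a, Kmt2c, Kmt2d and Setd1b (methyltransferases), Hcfc1 (a subunit), and Kdm6a and Kdm6b (H3K27 demethylases, the former a part of MLL complexes) made 7 of 20, and the other 13 stood at narrower regions without H3K27me3. Setd1b and Kdm6b rose against ES cells by 0.59 ± 0.11 and 2.12 ± 0.14, Hcfc1 and Kdm6a fell by 0.69 and 0.82, and Kmt2a, Kmt2c and Kmt2d did not pass the test. Kmt2a stood at 7.22 and 10.0 TPM in ES cells and 16.4 and 16.0 in wild-type motor neurons (log2 0.14 ± 0.18 from counts, adjusted p = 0.50). Both Polycomb members, Jarid2 and Pcgf2, fell, as did 8 of the 18 listed. Of 6 immediate early and stress members, Jun, Jund and Btg2 rose, Hspa8 and Trp53 fell, and Ddit3 had -0.42 ± 0.19 (adjusted p = 0.0765).

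Mnx1 regions overlapped 357 of the 718 members (49.7%), 48 of them with at least 2. The share was 27.2% in broad regions with H3K27me3, 17.5% in narrower regions without it, 3.57% in narrower regions with it and 14.7% in all. Wider regions hold more by length alone, so regions were also counted per length. Members held 11.3 Mnx1 regions per 100 kb, narrower regions without H3K27me3 10.3, broad regions with H3K27me3 5.41 and all regions 7.77. Without H3K27me3 the density was 6.72 below 1 kb, 12.1 at 2 to 3 kb, 11.7 at 3 to 4 kb, 12.0 at 4 to 5 kb, 10.7 at 5 to 6 kb and 10.1 at 6 kb or more. From 2 kb upward it therefore did not climb with width, while the share of regions with Mnx1 climbed from 29.1% to 58.8%. Within 500 bp of the strongest H3K4me3 summit, a window of equal length in all classes, 37.2% of members held a Mnx1 region, against 16.0% of broad regions with H3K27me3. Among narrower regions without H3K27me3 it was 35.2% at 3 to 4 kb, 28.5% at 2 to 3 kb and 4.54% below 1 kb, so the members were close to the regions just under their width. With 1 list per mark, none of these differences has a replicate test.

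**Figure D3:**
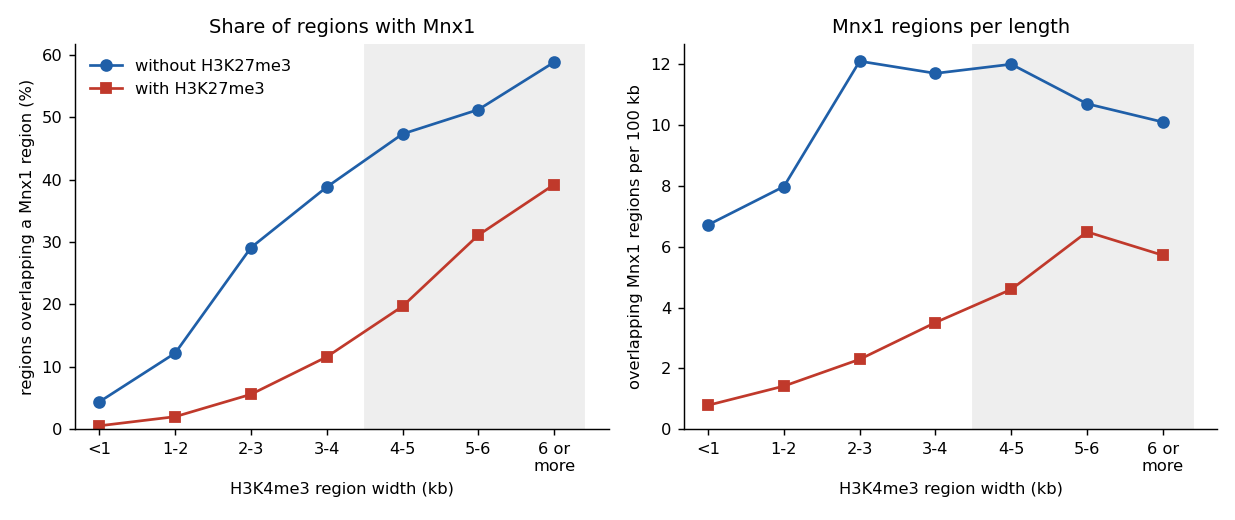
Overlap of wild-type H3K4me3 regions with Mnx1 regions by H3K4me3 width, as the share of regions with an overlap (left) and as Mnx1 regions per 100 kb of H3K4me3 (right), with H3K27me3 absent (blue circles) or present (red squares). Grey shading marks widths of 4 kb and more; the share without H3K27me3 climbs to 58.8% at the widest regions while the density stays between 10.1 and 12.1 from 2 kb upward.

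Inside the domains, Mnx1 regions lay near gene starts, as most of the domains themselves did. Of 409 Mnx1 regions in members, 406 had their summit in the domain, and the median distance from summit to the nearest coding start was 209 bp, against 11402 bp for the other 5384 Mnx1 regions. Within 500 bp of a start lay 71.6% (293) of them and 38.4% of the others. Because 91.8% of members lie at a gene start, this contrast follows largely from where the domains are. Positions were not compared with Mnx1 regions in other H3K4me3 regions at starts. Their median enrichment over background was 3.9, and that of the others 3.94. The strongest that overlapped gene-start domains were at Ppm1b (a protein phosphatase) and Rufy3, both 10.0, and Zfhx4 (a homeodomain zinc finger protein, 9.5). The Groucho-type corepressor Tle3 (9.4) and the chromatin proteins Adnp (8.2) and Baz2b (7.5) followed. At Tle3 the summit lay just outside the domain, 1858 bp from the nearest coding start. Of these 6 genes, Rufy3 rose from 10.8 and 10.1 TPM in ES cells to 221 and 226 in wild-type motor neurons, and Zfhx4, Tle3, Adnp and Baz2b rose as well (5.43, 0.89, 0.50 and 2.75 on the log2 scale). Ppm1b fell by 0.65 by edgeR, with 70.3 and 65.0 against 66.6 and 68.7 TPM, and stood at 0.00 on the log2(TPM + 1) scale.

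Member genes with and without Mnx1 had similar levels, with medians of 53.0 and 57.5 TPM in wild-type motor neurons. Against ES cells, 184 of 402 tested genes with Mnx1 rose and 136 fell, and 214 of 387 without it rose and 132 fell. The median log2 fold changes were 0.17 and 0.56. The difference between these groups was not tested, and sharing of a domain by several genes was more frequent with Mnx1 (24.6% of domains) than without (16.9%).

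No member gene passed edgeR's test between HD and wild-type motor neurons. Of 780 tested, 0 were called, 45 had an unadjusted p under 0.05 and the background was 27 of 15565 genes (0.173%; 0.135% higher and 0.0385% lower). DESeq2 on the same counts called 13 members (9 higher, 4 lower; 1.17% of all genes), limma on log2(TPM + 1) called 0, and edgeR on the 4 HD and wild-type libraries alone called 31 (21 higher, 10 lower; 2.21% of all genes). Leaving out EH replicate 1 or EH replicate 2 also gave 31, since a lone EH library adds nothing to the estimated spread. All 13 DESeq2 calls were among the 31. Of the 5 progenitor markers, Sox1 stood higher in HD (66.5 and 61.8 TPM, against 6.18 and 12.4 in wild type), while Sox2, Pax6, Olig2 and Nes were below 15 TPM in all 4 libraries. Its part in these differences was not tested.

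Of the 13 genes that DESeq2 called, those described here were named after their values were seen. Epha4, an ephrin receptor that repels growth cones, stood at 23.1 and 23.7 TPM in wild type and 10.3 and 10.1 in HD (log2 -1.04 ± 0.18 by edgeR, adjusted p = 0.116; 0.000133 by DESeq2). Mecom, a zinc finger factor, had 26.1 and 22.6 against 9.16 and 10.2 TPM (log2 -1.22 ± 0.30, adjusted p = 0.335 by edgeR and 0.00424 by DESeq2). Both HD libraries lay below both wild-type libraries for these genes, as they did for Tle3 (-0.48 ± 0.11). Snap25 stood higher in HD, with 182 and 203 TPM in wild type and 305 and 309 in HD (log2 0.70 ± 0.11, adjusted p = 0.0765 by edgeR and 4.58e-05 by DESeq2). The LIM-only factor Lmo4 (0.71 ± 0.12), the corepressors Tle1 (0.61 ± 0.09) and Tle4 (0.38 ± 0.08), the netrin receptor Neo1 (0.58 ± 0.12), the neuronal splicing factor Nova1 (0.56 ± 0.12), the plexin Plxna2 (0.56 ± 0.14), Arl4a (0.53 ± 0.10) and Tent5a (0.89 ± 0.13) were higher in both HD libraries than in either wild-type library as well.

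EH differed from wild type in more members. Of 780 tested, 181 were called by edgeR (23.2%; 21.2% of all genes), 113 higher (14.5%; 9.61% of all) and 68 lower (8.72%; 11.6% of all). At broad regions with H3K27me3, 12.5% were higher and 26.6% lower. The count was unstable: leaving out wild-type replicate 1 gave 6 and wild-type replicate 2 gave 4, EH replicate 1 gave 356, and HD replicate 1 or HD replicate 2 gave 105 each. These counts take members only. Without the share of all genes called in each setting, their moves are not read as a trait of the members. Depth (39.7 to 39.8 against 13.9 M counts) and the trophoblast markers given above moved with EH. So did the summed levels of 4 endoderm markers (16.9 and 38.5 TPM in EH, 9.29 and 8.06 in wild type), 5 neuron markers (2954 and 3574 in EH, 4150 and 4069 in wild type, Snap25 and Dcx included) and the 7 motor neuron markers (1826 and 2221 against 1693 and 1431). Not every marker moved. Both EH libraries lay above both wild-type libraries for the endoderm markers Gata4 and Gata6 and the motor neuron markers Mnx1, Isl1 and Isl2. Both lay below for the neuron markers Nefl and Snap25. For the other markers of these 3 lists, Chat, Lhx3, Tubb3 and Dcx among them, the libraries overlapped. The part of depth and of these markers in the calls was not tested. EH and HD were compared with the same wild-type libraries.

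Arhgap36 showed the largest EH rise among the named coding genes that start at members. It stood at 92.4 and 69.9 TPM in wild type, 54.7 and 49.5 in HD and 274 and 362 in EH (EH minus wild type, log2 2.00 ± 0.16, adjusted p = 0.00279 by edgeR). HD libraries were below and EH libraries above both wild-type libraries. Nnat, an imprinted neuronal proteolipid, had 486 and 284 TPM in wild type, 739 and 441 in HD and 1342 and 1646 in EH (EH log2 1.99 ± 0.31). Cntn2, an axonal cell adhesion molecule, had 151 and 116 in wild type and 363 and 571 in EH (1.83 ± 0.23). Lrrc75a, Zeb2 (a repressor of E-cadherin), Mfap3l, Tmtc2 and Txnip (a thioredoxin inhibitor) rose in EH by 1.48, 1.45, 1.44, 1.43 and 1.39.

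Among the largest EH falls, Crlf2, a cytokine receptor subunit, had 27.1 and 27.4 TPM in wild type and 7.0 and 4.84 in EH (log2 -2.10 ± 0.27). Jund, an AP-1 subunit, had 105 and 94.7 against 40.0 and 40.9 TPM (-1.28 ± 0.09, adjusted p = 0.00243 by edgeR), with EH and wild-type libraries well apart. Ppp1r13l, talin (Tln1), the anion exchanger Slc4a2, Dedd2, Ehbp1l1 and the ephrin Efnb1 fell by 1.47, 1.05, 1.03, 1.00, 0.97 and 0.97. Snap25, 104 and 122 TPM in EH, fell by 0.88 in EH (adjusted p = 0.00590). Among the widest members, Meis1 (1.08 ± 0.19), Irs1 (1.31 ± 0.16) and Snx18 (0.71 ± 0.10) rose in EH and Irs2 fell by 0.71.

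H3K4me3 was listed in HD at every member, and most kept a similar width. Each of the 718 overlapped an HD region, 672 of them exactly 1, and a median of 97.5% of a member's bases was covered. At least 90% was covered in 607 members (84.5%), and under 75% in 13. The widest overlapping HD region was a median of 0.98 times the wild-type width (quartiles 0.93 and 1.01), narrower in 491 and wider in 227. Of the 718, 560 were within 0.9 to 1.1, 50 under 0.8 and 30 over 1.1, and 584 (81.3%) still had an HD region of 4000 bp or more. Chosen the other way round, the 796 HD regions that met the same rule had a median wild-type width of 1.01 times theirs and 99.2% of their bases covered in wild type. Median enrichment was lower in the HD list, at 27.6 against 67.7 in members and 18.23 against 33.84 in all regions of the 2 lists. Broad regions with H3K27me3 had a median ratio of 0.94.

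**Figure D4:**
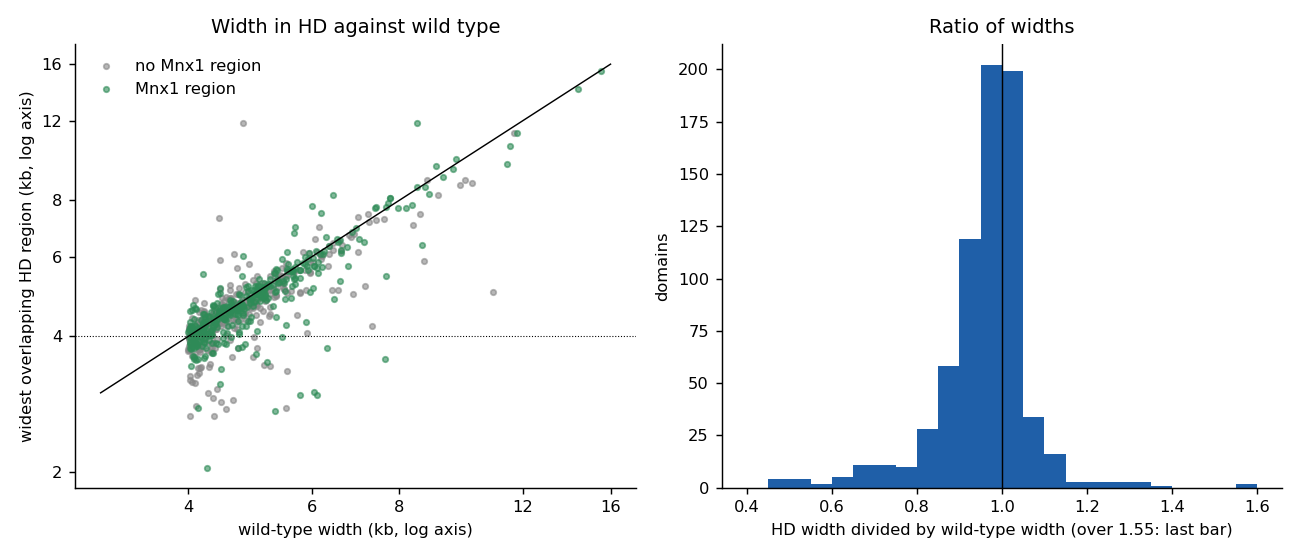
Left, width of each of the 718 domains in wild type against its widest overlapping HD region, both on log axes in kb, coloured by overlap with a Mnx1 region, with the line of equal width and a dotted line at 4 kb. Right, the ratio of HD to wild-type width in bars of 0.05, with the highest values gathered in the last bar; most domains lie close to 1 (median 0.98), with 50 under 0.8 and 30 over 1.1.

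The 6 named gene-start domains with the least cover in HD stood at genes that had all risen against ES cells. Of all tested members 50.4% were called higher in motor neurons, and of all genes 38.8%. At width ratios under 0.8, 69.1% of 55 tested genes were called higher and 10.9% lower. Whether cover in HD goes with the change against ES cells was not tested. Bcl9l, a Wnt pathway coactivator, had 58.2% of 5511 bp covered, Slc5a7 61.2% of 4355 bp, Nnat 64.5% of 4449 bp, Arhgap36 67.1% of 4134 bp, and the retinoid X receptors Rxrg and Rxra 67.7% of 5179 bp and 69.7% of 4392 bp. Rxrg stood at 127 and 98.0 TPM in wild type and 71.8 and 71.2 in HD (log2 -0.63 ± 0.20, adjusted p = 0.603 by edgeR), with both HD libraries lower. By edgeR, Slc5a7 had -0.48 ± 0.15 (adjusted p = 0.584), Arhgap36 -0.59 ± 0.16 (adjusted p = 0.414) and Nnat 0.62 ± 0.30 (adjusted p = 0.977). The RNA of Bcl9l and Rxra in HD is not given here. Neither was called by DESeq2 or by edgeR on the HD and wild-type libraries alone. Irs1, 10894 bp in wild type, was listed in HD as 3 regions, the widest of 5022 bp, with 91.2% covered in all. Its ratio of 0.46 therefore shows a split region rather than lost coverage.

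The 227 domains that were wider in HD were mostly so by a small margin, and 30 of them exceeded 1.1 times. At Rtn4 (Nogo, an inhibitor of axon growth) the HD region was 5904 bp against 4443, at Ubl3 5505 against 4201, at Gng2 (a G protein subunit) 6100 against 4656, at Tle4 7764 against 5998 and at Tsc22d1 a ratio of 1.28 was seen. Tle4 RNA was 50.4 and 49.2 TPM in wild type and 65.5 and 63.3 in HD, Ubl3 63.8 and 64.7 against 94.3 and 101, and Gng2 571 and 579 against 771 and 740. Both HD libraries were above both wild-type libraries in these 3 genes, and none passed edgeR's test (adjusted p = 0.209, 0.249 and 0.793). All 3 were among those called by edgeR on the HD and wild-type libraries alone. Rtn4 and Tsc22d1 were called neither there nor by DESeq2, and their RNA in HD is not given here. The largest ratio at gene starts, 1.65, was at a histone gene domain with H2ac10 and H3c8, at 4.77 TPM or less in every library.

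Across the 501 genes alone at their domain, the HD to wild-type width ratio and the RNA change in HD moved together in part (Pearson's r = 0.38, Spearman 0.37 across genes, given as a description because genes share the libraries and are not replicates). The next counts take all member genes, those that share a domain included. At ratios under 0.8, 20 of 52 tested genes had a positive log2 fold change (median -0.07), and at ratios over 1.1, 25 of 33 (median 0.08), against 407 of 780 members (median 0.01).

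**Figure D5:**
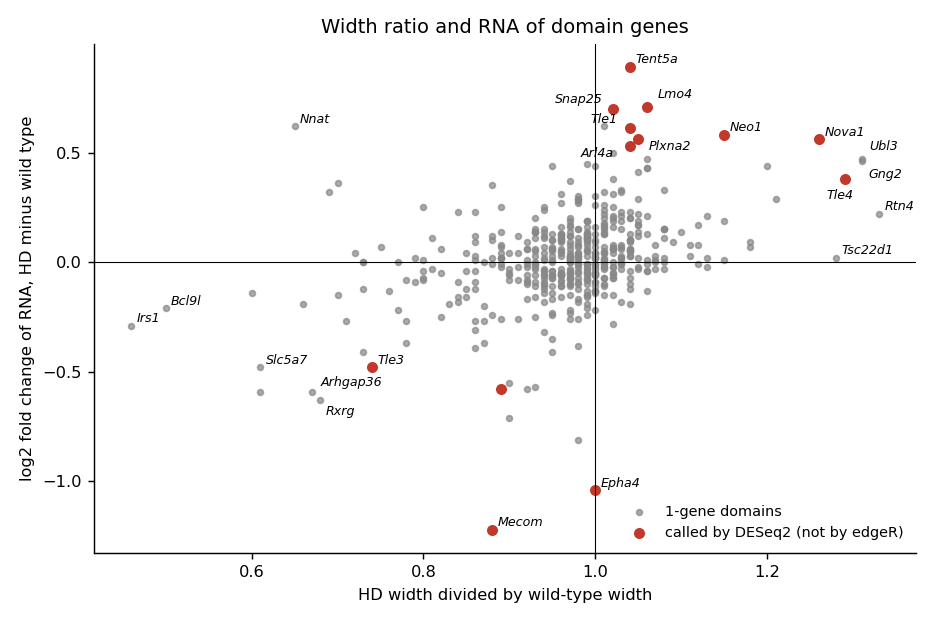
HD to wild-type width ratio of the domain against the edgeR log2 fold change of RNA (HD minus wild type) for 501 genes alone at their domain (grey). Red points are those called by DESeq2 and not by edgeR; the points slope upward with r = 0.38, with Arhgap36, Rxrg and Slc5a7 at lower left, Tle4 and Nova1 at upper right, and Epha4 low at a ratio of 1.0.

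Other marks placed the members among active promoters. H3K27ac overlapped 716 of 718 (99.7%) in wild type and in HD and covered a median of 58.6% and 60.2% of their bases. H3K4me1, usually found on promoter flanks and enhancers, overlapped 704 (98.1%) in wild type and 697 (97.1%) in HD and covered 48.2% and 43.6%. H3K9me3, a heterochromatin mark, overlapped 11 (1.53%) in wild type and 12 in HD. H3K27me3 appeared in the HD list at 6 members (0.836%). Broad regions with H3K27me3 had H3K27ac in 78.3%, H3K9me3 in 42.4% and a median H3K4me1 cover of 68.7% in wild type. Regions of 3 to 4 kb without H3K27me3 had H3K27ac in 99.1%, H3K9me3 in 0.658% and a median H3K4me1 cover of 49.1%. The members thus shared these marks with the regions just under their width. Single domains moved both ways. H3K27ac at Slc5a7 covered 58.9% of the domain in wild type and 17.7% in HD, and at Nr2f2 84.9% and 59.6%. Its cover was larger in HD at the domain inside Dlc1 (63.2% and 89.2%) and at Hnrnpl (63.2% and 84.0%). In 7 members an H3K27me3 region lay within 1 kb, and 33 of the 589 excluded broad regions shared under 10% of their bases with H3K27me3.

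The 44 coding genes around domains away from starts had 35 higher and 6 lower in motor neurons than in ES cells (median 1.93), where 38.8% and 36.5% of all genes tested were called. The widest member of all, 15506 bp at chr11:35544262-35559767, lay inside Slit3, a secreted guidance cue, 99.0% under H3K27ac and 15480 bp wide in HD. It held a Mnx1 region with an enrichment of 7.7, and that region's summit was 225136 bp from the nearest listed coding start. Slit3 stood at 1.61 and 2.16 TPM in ES cells, 67.5 and 51.3 in wild-type motor neurons, 77.5 and 63.3 in HD and 199 and 255 in EH (EH log2 2.00 ± 0.18, adjusted p = 0.00332 by edgeR). Both EH libraries were above all others. Slit2, its paralogue, had 3 members of 8684, 8479 and 4788 bp, and in HD 1 region of 11853 bp overlapped both the second and the third. Slit2 RNA was 1.18 and 1.02 TPM in ES cells and 626 and 582 in wild-type motor neurons.

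Further such domains lay in Nr2f2 (8697 bp), the growth factor gene Nrg1 (8565 bp), Rbfox1, Sema3a and Kif5a, all higher than in ES cells. Nr2f2, an orphan nuclear receptor, stood at 0.12 and 0.21 TPM in ES cells and 32.8 and 35.1 in wild-type motor neurons. Rbfox1, a neuronal splicing factor, went from 0.02 and 0.05 to 90.1 and 93.3 TPM. Arhgap36 had a second domain of 4595 bp beyond that at its start. Of 15 long noncoding RNA genes at domains away from coding starts, 11 were tested, of which 5 rose and 4 fell against ES cells. Malat1 (9221 bp) and Neat1 (6019 bp), both nuclear RNAs, fell by 1.11 and 2.17, and Gm28876 had 0 TPM in both ES libraries and 31.8 and 19.4 in wild-type motor neurons. Peg13, an imprinted RNA inside Trappc9, rose in EH, with 11.6 and 4.75 TPM in wild type and 77.1 and 150 in EH (3.82 ± 0.60, adjusted p = 0.00965 by edgeR), and wild-type libraries that differed from each other. Of the annotated miRNA hairpins, 12 lay in members, among them Mirlet7e, Mir125b-1, Mir130a and Mir335, and their mature forms were not measured.

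One member lay beside Mnx1 itself. It covered chr5:29482567-29487005 (4439 bp, enrichment 16.3), 4096 bp upstream of the start of Mnx1 (a minus-strand gene at chr5:29473823-29478470), and overlapped Mnx1 regions with enrichments of 6.0 and 4.9. In HD its region was 3144 bp. The H3K4me3 region over Mnx1 was 14635 bp wide and was no member, because 3 H3K27me3 regions of 400, 449 and 1207 bp (enrichments 3.3, 2.9 and 3.0) lay in it. In HD that stretch was listed as 3 regions of 1505, 5050 and 7277 bp.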

How the data were processed

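RNA files hold, per the file headers, an expected count and a TPM per Ensembl gene, both made by the authors. Per the submitters' processing notes, the tools included Trim Galore, STAR, RSEM, Bowtie2 and MACS2 with build mm10, with no versions given. From the deposited peak lists, in MACS2 layout, each region's −log10 q and its ratio over background (enrichment) were used; pooling of libraries is not stated in the sources used here. The H3K27ac list labelled wild type names its peaks K27ac_KO and was kept under its label.

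Regions listed several times, once per summit, were counted once. Overlap needed 1 bp. A coding gene belonged to a domain when its start, or either end where no strand was known, lay in it or within 1 kb. The main RNA test, on whole-number expected counts after rounding, was the quasi-likelihood test of edgeR 4.0.16 in R 4.3.3 with TMM scaling, filterByExpr and Benjamini-Hochberg adjustment, with ES cells in a fit of 8 libraries and HD and EH in a fit of 6. DESeq2 1.42.0 and limma 3.58.1 were alternatives. Errors after ± on log2 fold changes are standard errors derived from the F statistic (fold change over the root of F). The script was tested on simulated data: 2-fold changes were recovered in 55.7% (ES), 51.5% (HD) and 67.7% (EH) and 4-fold changes in 85.7%, 90.0% and 91.8%. In every RNA group the 2 libraries differed by more than counting noise. Named genes are those at the 10 widest and 5 narrowest domains, the 8 largest rises and falls per comparison, the 6 strongest Mnx1 overlaps, the 6 least covered and 6 widest in HD, and list members; others were named after their values were seen, and 1 gene that the rule names is not reported here. Members, lists and tests were chosen with earlier results of these data known, so their counts are not independent evidence.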

Additional observations from a re-analysis of the deposited data

Results flagged for a closer look

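For 16 of the genes named for EH, the difference from wild type differed between HD and EH by edgeR's test of the HD minus EH contrast, in which the wild-type libraries cancel. Across all members tested, 85 of 780 were higher and 121 lower in HD than in EH at an adjusted p under 0.05, and 21.2% of all genes tested were called in that contrast. Lower in HD than in EH were Arhgap36 (log2 -2.59, adjusted p = 0.00169), Cntn2 (-2.20), Txnip (-1.43), Nnat (-1.37), Mfap3l (-1.34), Lrrc75a (-1.26), Zeb2 (-1.13) and Tmtc2 (-1.07). Higher in HD than in EH were Crlf2 (log2 1.83, adjusted p = 0.00769), Jund (1.33), Ppp1r13l (1.16), Ehbp1l1 (0.96), Efnb1 (0.88), Tln1 (0.88), Slc4a2 (0.83) and Dedd2 (0.73). The 16 were named for their EH change, so the direction of each difference follows in part from that choice. Depth was 11.2 and 12.4 M counts in HD and 39.7 and 39.8 M in EH, and the part of depth and of the trophoblast markers in these differences was not tested.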

How the results depend on the processing

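A minimum of 3000 bp gave 2237 broad domain members and 5000 bp gave 263. At 5000 bp, 242 member genes were called against ES cells (158 higher, 84 lower) and 72 in EH (48 and 24), because fewer genes were tested, and the Mnx1 share was 54.0%. Genes alone at their domain gave 433 calls against ES cells, 135 of them lower. limma on log2(TPM + 1) gave 142 lower against ES cells and 119 EH calls (65 higher); on that scale Aen (0.10), Brd2 (0.32), Ddx5 (0.35), Ivns1abp (0.11), Polr2a (0.34), Ppm1b (0.00) and Ubl3 (0.00) no longer stood lower than in ES cells. In HD, DESeq2 gave 13 calls (9 higher, 4 lower), no low-count filter 6 (4 and 2), and the 2 groups alone 31 (21 and 10). In EH, the 2 groups alone gave 106 (69 and 37). Leaving out 1 library gave 600 to 678 calls against ES cells, 0 to 31 in HD (0 to 21 higher, 0 to 10 lower) and 4 to 356 in EH (3 to 232 higher, 1 to 124 lower). With the replicate number as a block, calls were 659 against ES cells, 0 in HD and 114 in EH (72 and 42). Same-numbered libraries did not deviate together in every pair of groups (correlations -0.30 to 0.34), so the numbers are not taken as pairs. With the EH numbers crossed, a choice made after the data were seen, the block gave 244 calls in EH and 0 in HD. Most of these counts have no share over all genes beside them, so the moves are not read as a trait of the members. The cause of these moves was not tested except where stated.

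A −log10 q of 10 or more for Mnx1 regions gave a Mnx1 share of 27.9%. Counted in reverse, 93.0% of HD domains were covered at 90% or more in wild type. Where at least 50% of the domain had to be covered, H3K27ac was at 70.5% of members in wild type and 71.0% in HD, H3K4me1 at 46.2% and 35.0%, and H3K27me3 in HD at 0.0%. The 32 named genes called in EH, those named under other rules included, kept direction in every alternative. Not all of them kept the threshold when 1 library was left out.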
